A study of Arabidopsis thaliana with 12 samples.

Results

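The response of cdk8-1 shoots to growth without sulfate was read from 6 of the 12 libraries of a study of Arabidopsis thaliana seedlings. All loci with a mean of at least 1 TPM (transcripts scaled for length and library total) over the 12 libraries were taken, which were 19127 of the 32833 loci in the deposited table. The line cdk8-1 carries a mutant allele of CDK8. Its shoots came from plates whose magnesium salt was 1.5 mM magnesium chloride (cdk8-1 without sulfate, 3 libraries) or 1.5 mM magnesium sulfate (cdk8-1 with sulfate, 3 libraries). Col-0, the wild type, was grown on both kinds of plate and gave 3 libraries without sulfate and 3 with it. All seedlings were 10 days old and were raised on diluted Murashige and Skoog medium in washed agar, so the plates without sulfate also held more chloride. A single mutant line was used, and no rescued line was among the samples. The labels do not say whether replicates came from separate plates or seed lots, so each p-value reflects only how these samples varied.

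Plants take up sulfate through SULTR transporters, activate it with ATP sulfurylase (APS genes), reduce it with APS reductase (APR genes) and build it into cysteine, glutathione, methionine and the glucosinolates, the sulfur-rich defense compounds of the cabbage family. Short of sulfate, Arabidopsis switches on a known set of genes, among them LSU and SDI genes, high-affinity transporters and the microRNA miR395, and draws on stored sulfur compounds. CDK8 is the kinase of a separable module of Mediator, the complex that links transcription factors to RNA polymerase II.

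CDK8 itself stayed low in both mutant groups. It had 5.19, 5.20 and 6.09 TPM in cdk8-1 without sulfate, against 2.96, 4.01 and 4.99 TPM in cdk8-1 with sulfate, where Col-0 averaged 33.2 ± 0.451 TPM without sulfate and 22.8 ± 1.71 TPM with it (SD, n = 3 each). Its change in cdk8-1 did not pass (-0.05 on log2(TPM + 1) relative to the median gene, adjusted p = 0.939). Of the other kinase-module genes, 1 was called higher and 1 lower, where 38.5% of all genes were called higher and 24.7% lower. GCT rose by 0.38 and AT5G48630 changed by -0.67, a call that ended without cdk8-1 with sulfate replicate 2 (-0.63) or cdk8-1 without sulfate replicate 1 (-0.63).

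Of the 6 cdk8-1 libraries 2 stood apart by marker genes of other tissue. The libraries held 17508562 to 25274335 reads in genes over all 12, so that 1 read in a transcript of 1 kilobase stood for 0.0710 to 0.0962 TPM. LHCB1.3, an antenna gene of green tissue, was the most abundant gene in both cdk8-1 groups, and of 9 root markers 7 stayed below 1 TPM on average. The summed root markers were at 9.31 to 29.1 TPM without sulfate and 8.96 to 13.8 TPM with sulfate, with the highest value in cdk8-1 without sulfate replicate 1 (CASP1 at 12.9, 2.97 and 4.70 TPM in replicates 1, 2 and 3 of that group). Transcripts of seed storage proteins stood out in cdk8-1 with sulfate replicate 1, where CRA1 was at 67.5 TPM with 1.52 and 1.74 TPM in the other libraries of the group. The 8 seed markers summed to 1.24 to 4.86 TPM without sulfate and 2.41 to 235 TPM with sulfate. That library also held the most LSU1 and APR3 of its group, and the part of seed or root RNA in any result was not tested. Without both libraries numbered 1, 6828 genes were called higher and 4411 lower, against 7372 and 4730 with them. In such bulk RNA, fewer cells of a type and less RNA per cell cannot be told apart.

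The sequences of miR395 and of stretches of mRNA that pair best with it are given first. The 6 precursors of miR395 give 2 mature forms, which share the seed (bases 2 to 8, in capitals, as DNA letters of RefSeq):
MIR395a, MIR395d and MIR395e: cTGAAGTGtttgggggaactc
MIR395b, MIR395c and MIR395f: cTGAAGTGtttggggggactc
The stretches of 21 bases below, from the coding sequences of 4 ATP sulfurylase genes and a transporter gene, are those that pair best with the first form (capitals mark bases that pair with it):
APS1: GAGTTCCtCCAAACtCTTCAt
APS3: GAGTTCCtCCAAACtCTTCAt
APS4: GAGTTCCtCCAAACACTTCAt
SULTR2;1: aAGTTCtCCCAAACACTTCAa
APS2: GctcTCtCCtAAACAgcTtAG
APS4 paired at 19 of 21 bases, APS1, APS3 and SULTR2;1 at 18, and APS2 at 13. Pairing of letters alone does not show that a gene is a target.

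Reads over the precursor locus MIR395e rose without sulfate. It had 176, 187 and 138 reads in cdk8-1 without sulfate, against 0, 1 and 0 reads in cdk8-1 with sulfate. On the TPM scale these were 178, 155 and 137 without sulfate and 0, 0.995 and 0 with it, a log2 change of 6.51 that depends on the added 1 TPM. The locus passed the filter through the libraries without sulfate alone, so no test is given for it. MIR395a had 26.9, 22.9 and 31.5 TPM without sulfate and 1.77, 0 and 0 TPM with it, and MIR395d 15.4, 6.31 and 8.497 TPM without sulfate and 0 in all 3 libraries with it. MIR395f had 1 read in all without sulfate and 0 with it, too few to compare. The libraries hold long RNA, so these are counts over the precursor loci and not of the mature microRNA, and the loci were picked after their values were seen.

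The genes with these stretches did not all move alike. APS1 had 158, 143 and 156 TPM in cdk8-1 without sulfate, against 478, 438 and 426 TPM in cdk8-1 with sulfate, and changed by -1.99 (adjusted p = 3.32e-10). APS4 was at 7.43, 6.38 and 7.69 TPM without sulfate and 35.3, 42.5 and 45.6 TPM with it, a change of -2.81. APS3, whose stretch is letter for letter that of APS1, had 36.5, 40.9 and 37.3 TPM without sulfate and 39.4, 30.4 and 28.3 TPM with it, and its groups overlapped (-0.22, adjusted p = 0.228). APS2, with 8 mismatches, fell too, to 10.5, 12.7 and 11.3 TPM without sulfate, against 68.4, 58.7 and 50.6 TPM with it (-2.71). SULTR2;1, a vascular sulfate transporter, changed by -0.68 with overlapping groups, and the call ended without cdk8-1 without sulfate replicate 2 (-0.60) or 3 (-0.67) or cdk8-1 with sulfate replicate 1 (-0.62) or 2 (-0.68).

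Growth without sulfate changed most of the transcriptome of cdk8-1. Of 19127 genes, 7372 (38.5%) were called higher and 4730 (24.7%) lower without sulfate, and by at least 2-fold 2784 (14.6%) higher and 3706 (19.4%) lower. A gene was called where limma on log2(TPM + 1) gave an adjusted p below 0.05 with the same sign on the deposited scale and after median-of-ratios scaling. Changes are log2 differences relative to the median gene, which itself lay 0.45 higher without sulfate on the deposited scale and 0.03 after scaling. The added 1 TPM narrows the changes of low genes. The split of calls depends on the scale: 60.9% of calls were upward by this rule, 69.7% on the deposited scale alone (10877 higher, 4730 lower) and 50.8% after scaling alone (7372 higher, 7135 lower). The quartiles of all changes lay at -0.74 and 0.59. Against this background, 945 genes were called higher and 1343 lower by 4-fold or more, and 46 and 13 by 32-fold or more. The median SD within a group was 0.11 without sulfate and 0.12 with it.

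After the beta-glucosidase genes BGLU30 and BGLU28 and the carbonic anhydrase gene BCA3, the largest rise was that of AT2G04070, with 272, 308 and 299 TPM in cdk8-1 without sulfate, against 0.336, 0.0551 and 0.0555 TPM in cdk8-1 with sulfate (7.56). AT4G12735 had 230.2, 258 and 236 TPM without sulfate and 0.317, 0 and 0 TPM with it (7.34). At the other end, after the myrosinase gene TGG2, stood THI2.2, a thionin gene, with 1.38, 0.261 and 1.25 TPM without sulfate and 102, 94.6 and 106 TPM with it (-6.20). GER3, a germin-like gene, had 5.25, 11.7 and 5.81 TPM without sulfate and 388, 315 and 318 TPM with it (-5.83). In each of these genes the groups were far apart. They were picked from the same values for the size of their changes, so no test is given for them.

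The most abundant messages differed between the supplies. Genes called higher by 4-fold or more took 11.1% to 11.98% of all TPM in cdk8-1 without sulfate and 0.792% to 1.00% in cdk8-1 with sulfate. Those called lower by 4-fold or more took 7.47% to 8.85% without sulfate and 40.9% to 42.0% with sulfate. These shares follow from the choice of the genes and carry no test. The 10 most abundant genes took 4.50% to 4.76% without sulfate and 12.7% to 13.3% with sulfate, where all but Rubisco and its activase encoded light-harvesting proteins. Without sulfate the list of the most abundant genes held the metallothionein gene MT2B (5983 ± 168 TPM, against 2773 ± 238 TPM with sulfate). It also held PRXCB, a cell-wall peroxidase gene, at 5631 ± 600.4 TPM without sulfate and 97.4 ± 16.0 TPM with it, and ADC2, for arginine decarboxylase of polyamine synthesis, at 4098 ± 236 TPM without sulfate and 232 ± 30.3 TPM with it (SD, n = 3 each). These genes were picked for their abundance, after their values were seen.

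**Figure D1:**
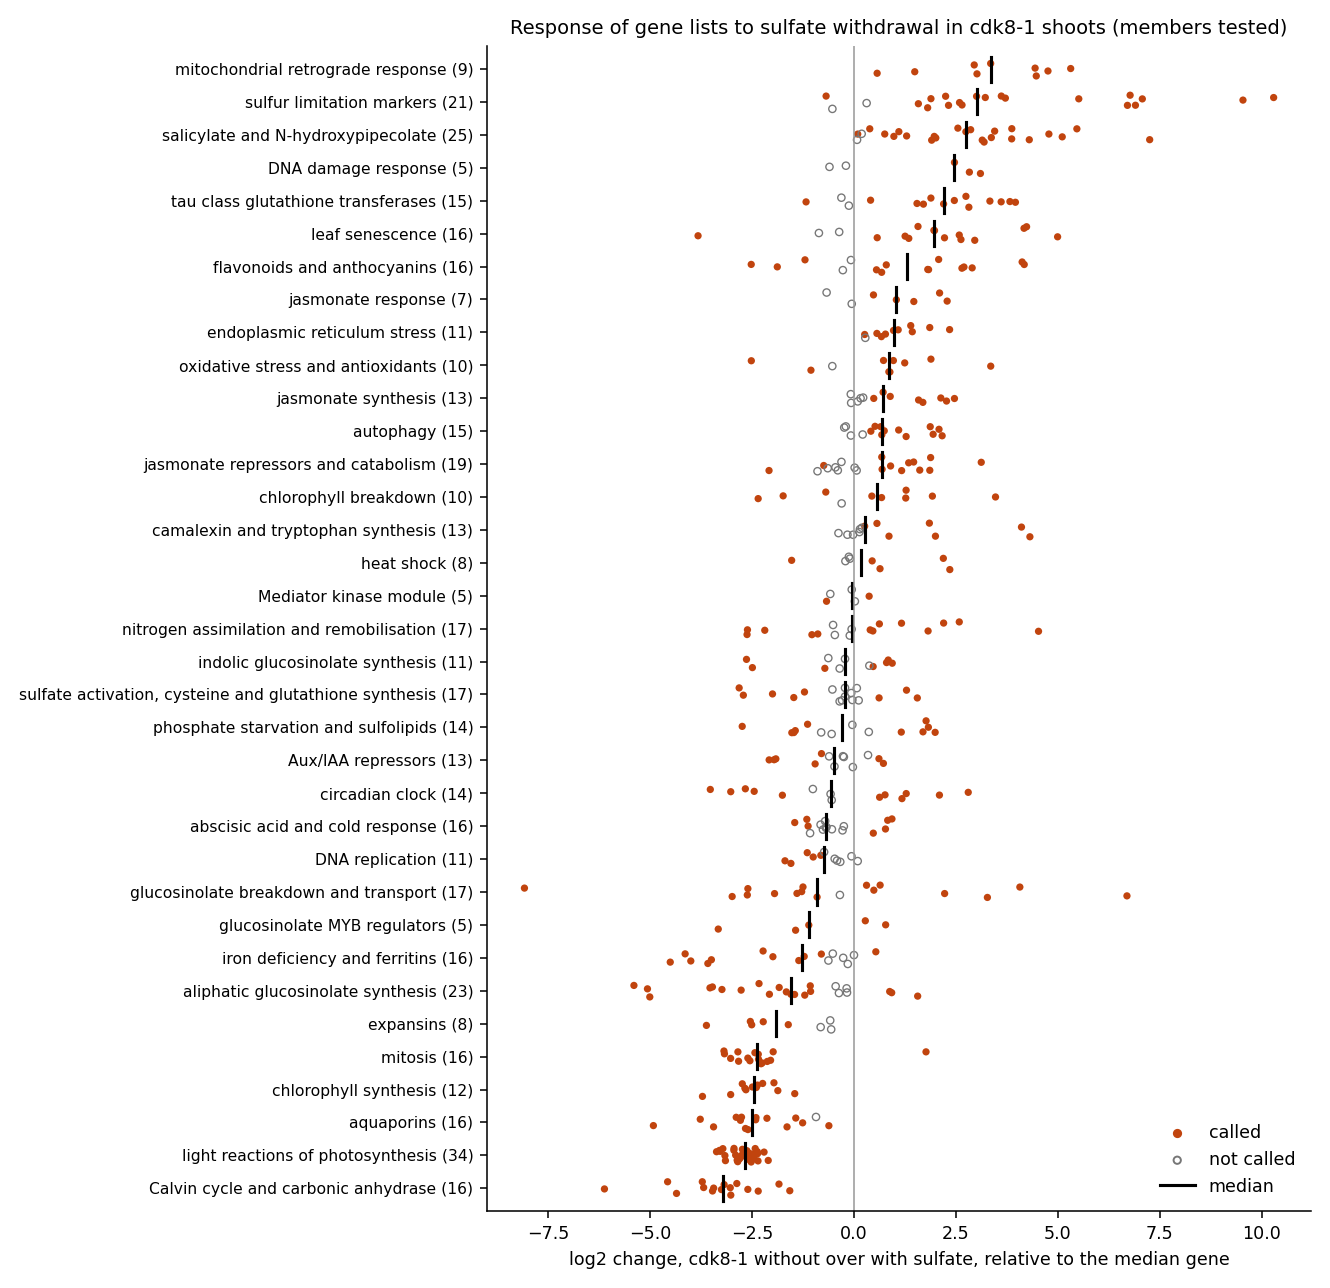
Log2 change of each tested gene of the fixed lists in cdk8-1 without sulfate relative to cdk8-1 with sulfate, on log2(TPM + 1) relative to the median gene. Filled points were called, hollow points were not, and bars are medians. All 34 light-reaction genes and all 16 Calvin-cycle genes lie below 0, and 23 of 25 salicylate genes were called above it.

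Sulfur limitation markers rose together. Of 21 tested, 18 were called higher and 1 lower, with a median change of 3.01, against 38.5% and 24.7% of all genes and a median of 0. The member called lower was SULTR2;1. The LSU genes, whose small proteins bind partners during sulfur shortage, had low and uneven levels with sulfate. LSU2 had 1072, 967 and 901 TPM in cdk8-1 without sulfate, against 36.8, 11.6 and 7.05 TPM in cdk8-1 with sulfate (5.52 ± 0.61, SE, adjusted p = 3.78e-06). LSU3 had 552, 515 and 491 TPM without sulfate and 8.41, 1.52 and 0.768 TPM with it (6.78), and LSU4 61.8, 43.4 and 41.5 TPM without sulfate and 2.26, 0.866 and 2.37 TPM with it (3.72). In LSU1, LSU2 and LSU3 replicate 1 was the highest of the libraries with sulfate, yet the groups did not overlap. SHM7, annotated as a serine hydroxymethyltransferase, rose to 1042, 948 and 926 TPM without sulfate, against 129, 77.1 and 42.6 TPM with it (3.23).

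The transporters rose by different amounts. SULTR4;2, which with SULTR4;1 exports sulfate from the vacuole, had 138, 138 and 137 TPM in cdk8-1 without sulfate, against 16.7, 16.8 and 14.2 TPM in cdk8-1 with sulfate (2.59 ± 0.08, adjusted p = 3.82e-11). SULTR4;1 changed by 1.58 and the vascular transporter SULTR2;2 by 1.81. The high-affinity uptake transporter SULTR1;1 was nearly silent with sulfate (0.314, 0.0401 and 0.0807 TPM) and reached 13.7, 9.09 and 12.3 TPM without it. In these 4 genes the groups did not overlap.

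Of 17 genes of activation, cysteine synthesis and glutathione synthesis 3 were called higher and 5 lower, with a median of -0.22, where 38.5% of all genes were called higher and 24.7% lower. After median-of-ratios scaling alone 3 were called higher and 9 lower, against 7372 and 7135 of all 19127 genes. APK1, one of the APS kinases that make the sulfate donor of sulfotransferases, had 232, 221 and 202 TPM without sulfate and 91.7, 52.3 and 55.8 TPM with it (1.29). Its paralog APK2 had 36.0, 37.1 and 46.9 TPM without sulfate and 99.6, 55.5 and 56.7 TPM with it (-1.21). Both serine acetyltransferases SERAT2;1 (1.56) and SERAT2;2 (0.62) rose, and SERAT3;2 rose to 53.0, 41.2 and 43.6 TPM without sulfate, against 6.03, 4.89 and 2.87 TPM with sulfate. Sulfite reductase SIR and the cytosolic O-acetylserine lyase OASA1 did not pass, at -0.35 and -0.03.

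A gene of glutathione synthesis fell while a gene of its breakdown rose. GSH1, for the first and limiting enzyme of glutathione synthesis, had 71.1, 74.9 and 82.4 TPM in cdk8-1 without sulfate, against 155, 152 and 159 TPM in cdk8-1 with sulfate (-1.47 ± 0.08, adjusted p = 1.52e-07). GSH2, for the next step, did not pass (-0.29). GGCT2;1, which cleaves glutathione in the cytosol, had 899, 798 and 813 TPM without sulfate and 8.90, 3.02 and 2.34 TPM with it. APR1 and APR3 rose by 2.25 and 2.32, whereas APR2 was at 90.8, 80.5 and 82.2 TPM without sulfate and 76.0, 47.6 and 33.0 TPM with it. APR2 did not pass with all libraries (0.32) and passed without cdk8-1 with sulfate replicate 1 (0.61).

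**Figure D2:**
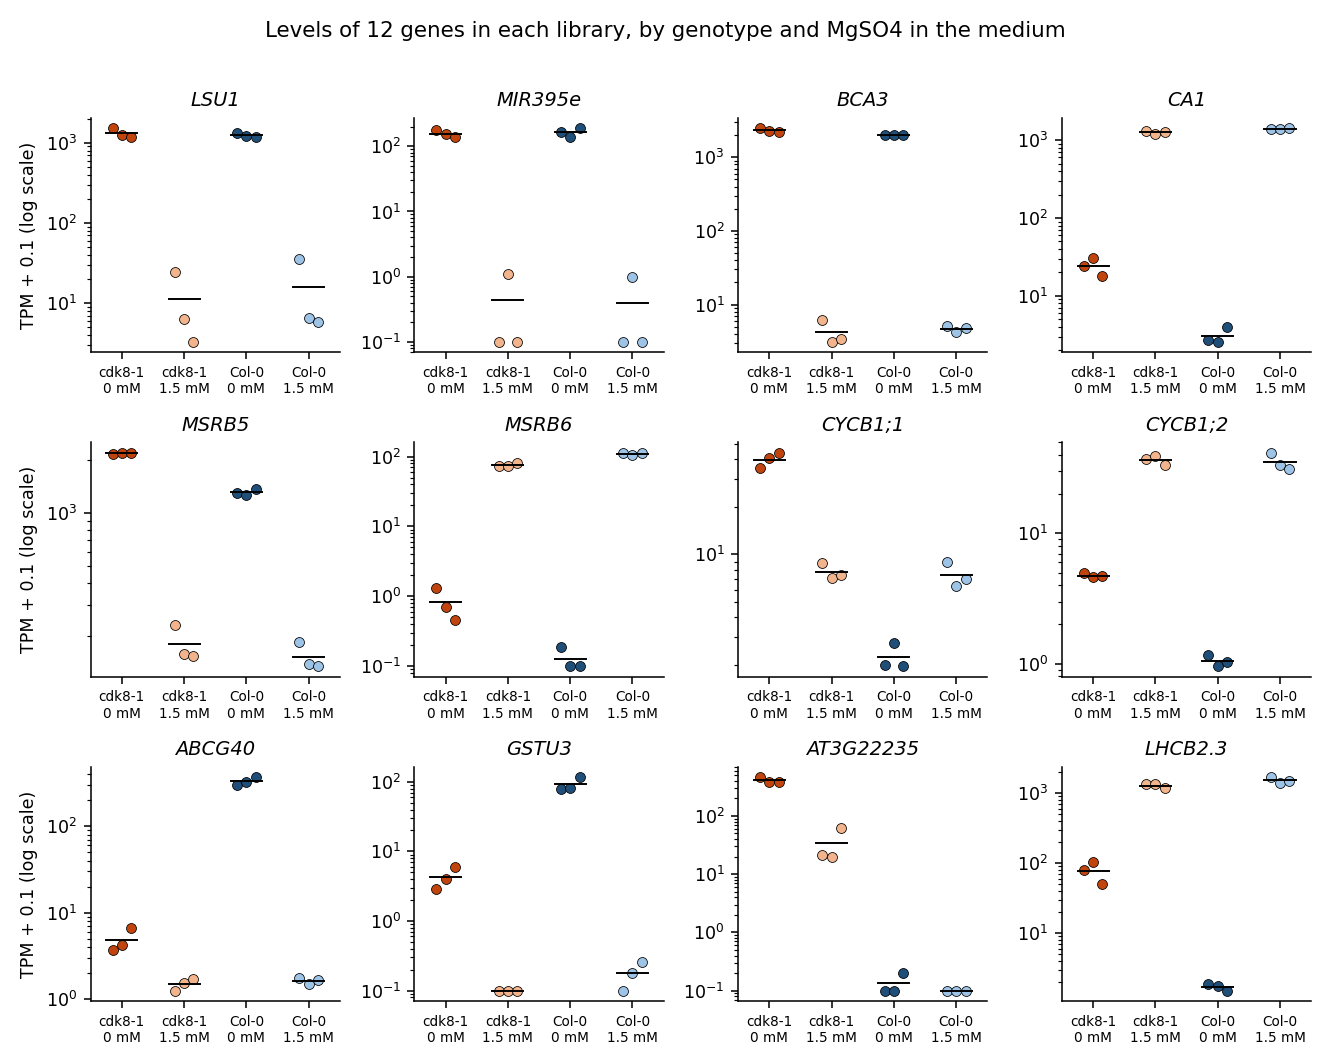
TPM + 0.1 of 12 genes in every library on a log axis, 1 point per library, with the 4 groups side by side from cdk8-1 without sulfate to Col-0 with sulfate. BCA3 and CA1, both carbonic anhydrase genes, move in opposite directions, as do MSRB5 and MSRB6, and CYCB1;1 and CYCB1;2 in cdk8-1.

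Most glucosinolate genes of the methionine-derived branch fell. Of 23 tested aliphatic genes 16 were called lower and 3 higher (median -1.54), against 24.7% and 38.5% of all genes. BCAT4, for the first step of methionine chain elongation, had 2.45, 2.28 and 2.80 TPM in cdk8-1 without sulfate, against 136, 99.4 and 90.4 TPM in cdk8-1 with sulfate (-5.39 ± 0.17, adjusted p = 5.09e-11). CYP79F1, the first enzyme of the core structure, had 0.794, 0.771 and 0.895 TPM without sulfate and 61.9, 37.1 and 31.6 TPM with it (-5.00). The core enzyme CYP83A1 changed by -3.47, the flavin monooxygenase FMOGS-OX1 of the side chain by -3.23 and IPMI2 of chain elongation by -2.76. In all 5 of these genes replicate 1 was the highest library with sulfate. The members that rose were GGP1, which hydrolyses glutathione conjugates, by 1.57, FMOGS-OX5 by 0.88 and FMOGS-OX4 by 0.93, the last a call that ended without cdk8-1 without sulfate replicate 1 (0.71) or cdk8-1 with sulfate replicate 2 (0.82) or 3 (0.62).

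Of 11 tested indolic genes 4 were called higher and 3 lower, near the shares of all genes (38.5% higher and 24.7% lower). CYP83B1 had 146, 185 and 214 TPM without sulfate and 95.1, 55.3 and 72.8 TPM with it (0.84). CYP79B3, for the entry from tryptophan, had 6.39, 8.41 and 8.38 TPM without sulfate and 47.2, 32.4 and 36.9 TPM with it (-2.63), and the methyltransferase gene IGMT1 fell by a like amount (-2.49). Among the MYB regulators 2 of 5 rose and 3 fell. MYB29, an activator of aliphatic genes, was nearly lost, at 0.167, 0.365 and 0 TPM without sulfate against 11.4, 5.95 and 6.32 TPM with it (-3.32). MYB28 changed by -1.10 and the indolic regulator MYB34 by -1.43, while MYB51 rose by 0.78. MYB122 had 0.677, 0.505 and 0.907 TPM without sulfate and 0.0527, 0 and 0 TPM with it, and was called higher.

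Of 17 genes of glucosinolate breakdown and transport 7 were called higher and 9 lower, where 38.5% of all genes were called higher and 24.7% lower. Their summed TPM was 7066 to 7963 without sulfate and 6009.7 to 6398 with it. The classical myrosinase TGG1 had 763, 816 and 738 TPM in cdk8-1 without sulfate, against 3352, 3458 and 3565 TPM in cdk8-1 with sulfate (-2.61), and the atypical myrosinase PEN2 rose slightly (0.31). Nitrilases, which turn nitriles into acids and ammonia, were called in both directions. NIT2 had 682, 729 and 893 TPM without sulfate and 6.01, 2.52 and 5.33 TPM with it (6.70), and its neighbors NIT1 and NIT3 rose by 2.23 and 4.07. NIT4, which acts on a cyanide product, fell to 2.32, 2.35 and 2.47 TPM without sulfate, against 9.72, 8.19 and 7.78 TPM with it (-1.94). The specifier genes ESP (-2.98), ESM1 (-2.60) and NSP1 (-1.39) fell and NSP5 rose (3.28).

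Nuclear photosynthesis genes fell without exception among those tested. All 34 light-reaction genes (median -2.68), all 16 Calvin-cycle genes (median -3.21) and all 12 tested genes of chlorophyll synthesis (median -2.44) were called lower, where 24.7% of all genes were. LHCA1, an antenna protein of photosystem I, had 1211, 1469 and 1122 TPM in cdk8-1 without sulfate, against 8081, 8273 and 8198 TPM in cdk8-1 with sulfate (-3.15 ± 0.09, adjusted p = 4.28e-11). PETE2, the major plastocyanin, had 406, 465 and 429 TPM without sulfate and 3132, 3037 and 3183 TPM with it (-3.29). NPQ4, the sensor of excess light in photosystem II, changed by -3.27, and the smallest fall of the list was that of ATPC1 (-2.10), a subunit of the chloroplast ATP synthase. The light-reaction genes together took 31699 to 39520.05 TPM without sulfate and 161171 to 169042 TPM with it.

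Within carbon fixation the falls ranged from CA1 (-6.11) to TKL1 (-1.57). RCA, the activase of Rubisco, had 1047, 1207 and 976 TPM in cdk8-1 without sulfate, against 8859.9, 8783 and 8417 TPM in cdk8-1 with sulfate (-3.46). SBPASE, an enzyme of the Calvin cycle, changed by -3.68. Rubisco small-subunit genes RBCS1A, RBCS2B and RBCS3B changed by -3.44, -4.35 and -4.57, though reads of these near-identical copies, like those of LHCB1, cannot be placed with certainty. Among chlorophyll genes PCB2, the vinyl reductase, had 10.5, 11.7 and 12.3 TPM without sulfate and 122, 119 and 115 TPM with it (-3.71), and HEMA1, the entry to the pathway, changed by -1.45.

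Beta carbonic anhydrases, which interconvert carbon dioxide and bicarbonate, changed both ways. BCA3 had 2455, 2282 and 2217 TPM in cdk8-1 without sulfate, against 6.04, 3.04 and 3.35 TPM in cdk8-1 with sulfate (8.41 ± 0.16, adjusted p = 9.58e-13). CA2 had 53.1, 97.6 and 67.2 TPM without sulfate and 767, 839 and 814 TPM with it (-3.95), and BCA4 48.1, 53.4 and 50.6 TPM without sulfate and 144, 143 and 136 TPM with it (-1.91). CA1, the abundant chloroplast form, fell as well. BCA5 changed by -0.996 and BCA6 did not pass (-0.33). Except CA1 and BCA3, these members were added after their values were seen.

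Aquaporins, the water channels of the plasma membrane (PIP) and vacuole (TIP), fell in 15 of 16 members, with a median of -2.50. Of all genes, 24.7% were called lower. TIP2;1 had 64.8, 86.8 and 88.3 TPM in cdk8-1 without sulfate, against 1554, 1875 and 1909 TPM in cdk8-1 with sulfate (-4.91 ± 0.18, adjusted p = 1.72e-10). PIP1;3 had 76.4, 103 and 76.8 TPM without sulfate and 633, 714 and 694 TPM with it (-3.44), and TIP1;1 changed by -3.77. The call of PIP2;6, the smallest, ended without any 1 of the 3 cdk8-1 libraries without sulfate (-0.59 to -0.63) or without cdk8-1 with sulfate replicate 2 (-0.58) or 3 (-0.59).

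**Figure D3:**
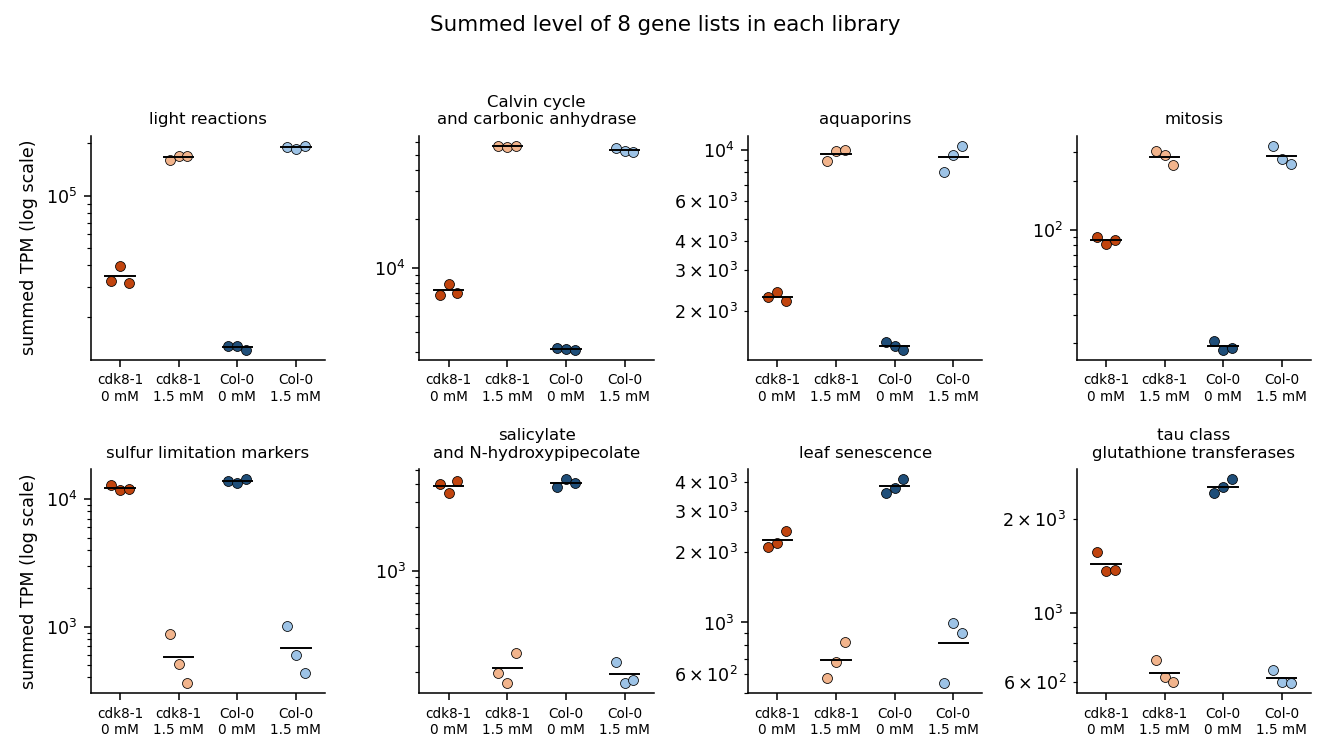
Summed TPM of the genes of 8 lists in every library, 1 point per library, for the 4 groups from cdk8-1 without sulfate to Col-0 with sulfate, on log axes. In both genotypes the sums of photosynthesis lists are lower and those of salicylate genes higher without sulfate.

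The sulfur content that the messages call for was also computed. In every library 133 chloroplast and 152 mitochondrial loci were at 0, so their messages carry no weight in it. All shares leave out the start codon. The share of cysteine and methionine codons among the other codons, each gene weighted by its TPM, was 3.708% ± 0.005 in cdk8-1 without sulfate and 3.528% ± 0.007 in cdk8-1 with sulfate (SD, n = 3 each). Every library without sulfate lay above every library with sulfate, and the exact two-sided permutation p was 0.1, the smallest that 3 against 3 libraries allow. Cysteine alone gave 1.571% without sulfate and 1.430% with it, and methionine alone 2.137% without sulfate and 2.098% with it. Without the light-reaction and Calvin-cycle lists the shares were 3.739% without sulfate and 3.651% with it. In Col-0 they were 3.751% ± 0.001 without sulfate and 3.499% ± 0.009 with it.

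Abundant genes added most to the difference or took most from it. The lower level of LHCB1.3, whose coding sequence is poor in these codons, added 0.0158 percentage points and that of LHCA4 0.0110. MT2B, a metallothionein with 19.7% of such codons, added 0.0095. The lower level of RCA contributed -0.0200 points and that of RBCS1A -0.0170. Across genes without weights, the median share was 3.88% for genes called higher by 4-fold or more and 3.60% for genes called lower by 4-fold or more, against 3.83% for all 18569 tested genes with a coding sequence. Over all called genes the medians were closer, at 3.85% for genes called higher and 3.75% for genes called lower, and genes not called were at 3.87%.

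**Figure D4:**
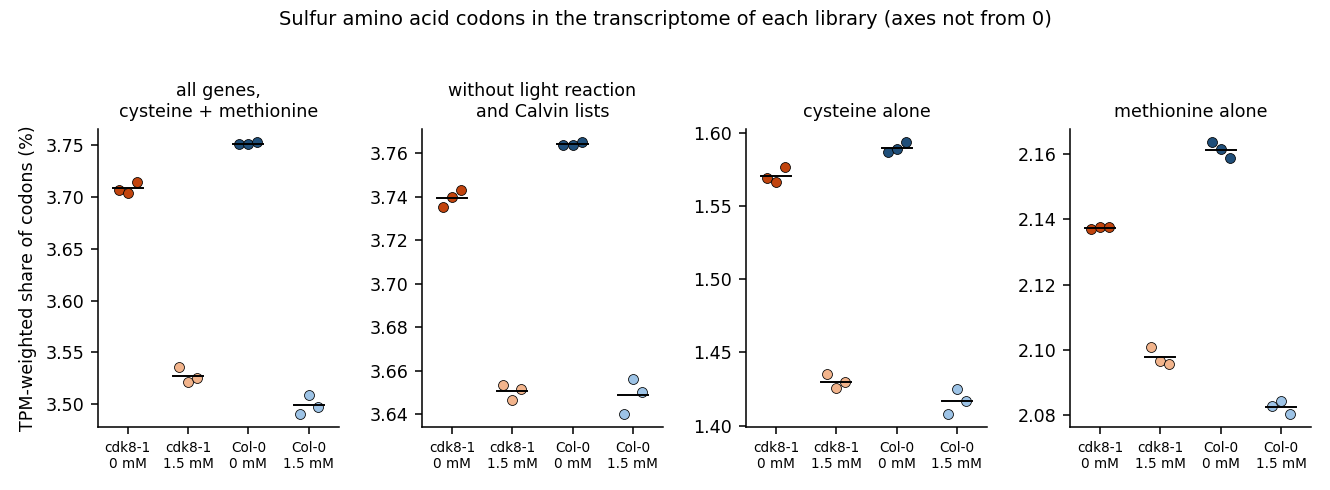
Share of cysteine and methionine codons in percent of all codons but the start codon, weighted by TPM, in every library of the 4 groups, for both amino acids, each alone, and without the photosynthesis lists. Vertical axes do not start at 0. In all 4 panels the cdk8-1 libraries without sulfate lie above those with sulfate.

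Methionine sulfoxide reductases of type B, which repair oxidized methionine, split. MSRB5 had 2169.6, 2197 and 2191 TPM in cdk8-1 without sulfate, against 229.7, 157 and 153 TPM in cdk8-1 with sulfate (3.18 ± 0.14, adjusted p = 8.63e-10). MSRB4, beside it on chromosome 4, changed by 3.25. MSRB6 went the other way, with 1.21, 0.609 and 0.365 TPM without sulfate and 74.3, 73.3 and 80.9 TPM with it (-5.96). MSRB4 and MSRB5 were picked after their values were seen.

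Genes of cell division fell, with a single exception. Of 16 mitotic genes 15 were called lower and 1 higher (median -2.38), against 24.7% and 38.5% of all genes. CYCB1;2, a mitotic cyclin, had 4.85, 4.49 and 4.60 TPM in cdk8-1 without sulfate, against 37.4, 39.5 and 33.2 TPM in cdk8-1 with sulfate (-3.18 ± 0.11, adjusted p = 2.34e-10). KNOLLE, the syntaxin of the cell plate, had 5.90, 4.21 and 4.02 TPM without sulfate and 39.1, 37.8 and 32.4 TPM with it (-3.17). The kinase CDKB2;1 (-2.84) and the activator CDC20.1 of the anaphase-promoting complex (-3.02) fell as well. The exception was CYCB1;1, a cyclin that is also induced by DNA damage, with 34.8, 40.2 and 43.6 TPM without sulfate and 8.79, 6.96 and 7.36 TPM with it (1.77, adjusted p = 1.80e-07).

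Of 11 replication genes 5 were called lower and none higher (median -0.73), against 24.7% and 38.5% of all genes. MCM7, a subunit of the replicative helicase, had 7.41, 7.18 and 7.02 TPM without sulfate and 20.3, 15.4 and 14.3 TPM with it (-1.54), while MCM2, MCM3, MCM4 and MCM5 did not pass (-0.06, -0.47, -0.33 and -0.41). The G1 cyclin CYCD3;1 changed by -1.69. Without both libraries numbered 1, 3 of the 11 were called lower, near the share of all genes. With all libraries and median-of-ratios scaling alone, 8 of the 11 were called lower, against 7135 of all 19127 genes.

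Of 5 tested genes of the DNA damage response, 3 were called higher, where 38.5% of all genes were. SMR7, an inhibitor of cyclin-dependent kinases, had 13.4, 12.7 and 16.3 TPM in cdk8-1 without sulfate, against 0.365, 1.12 and 0.282 TPM in cdk8-1 with sulfate (2.84). SMR7 averaged below 1 TPM in cdk8-1 with sulfate, so it passed the filter through other libraries and no test is given for it. PARP2, a poly(ADP-ribose) polymerase, had 39.4, 44.9 and 40.8 TPM without sulfate and 5.32, 4.73 and 3.95 TPM with it (2.47), and GMI1 changed by 3.11. BRCA1, of recombination repair, did not pass (-0.19). Of 8 expansins, which loosen cell walls, 5 fell, where 24.7% of all genes were called lower. They were led by EXPA8, with 5.52, 6.67 and 3.71 TPM without sulfate and 74.3, 53.6 and 40.4 TPM with it (-3.61).

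Leaf senescence genes rose in 13 of 16 and fell in 1 (median 1.97), where 38.5% of all genes were called higher and 24.7% lower. WRKY75, a transcription factor that promotes senescence, had 32.1, 39.7 and 43.9 TPM in cdk8-1 without sulfate, against 0.305, 0.700 and 0.822 TPM in cdk8-1 with sulfate (4.18). WRKY75 was below 1 TPM in all libraries of cdk8-1 with sulfate, so it passed the filter through other libraries and no test is given for it. SAG13, a dehydrogenase gene and senescence marker, had 407, 392 and 401 TPM without sulfate and 10.3, 4.90 and 10.6 TPM with it (5.00), and SRG1 changed by 4.24. ORE1, a central regulator of leaf aging, rose by 1.35 and NAP, another, did not pass (-0.36). SEN1, a gene induced by darkness, was the member that fell, with 9.94, 26.8 and 26.6 TPM without sulfate and 142, 249 and 258 TPM with it (-3.82). Chlorophyll breakdown genes rose in 6 of 10 and fell in 3, the falls near the share of all genes. NYE2 was at 3.48, NYE1 at 1.93 and the chlorophyllase CLH1 at -2.35.

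Autophagy, the bulk recycling of cell content, had 11 of 15 genes called higher and none lower (median 0.69), against 38.5% and 24.7% of all genes. NBR1, a cargo receptor, had 719, 826 and 795 TPM without sulfate and 122, 122 and 135 TPM with it (2.17). Of the ATG8 genes, whose product coats the autophagosome, ATG8D rose by 1.95 and ATG8B by 1.87, while ATG8C, ATG8E and ATG8F did not pass. Genes of glutamine synthetase were called in opposite directions. The plastid glutamine synthetase GLN2 had 371, 390.2 and 373 TPM without sulfate and 1668, 1721 and 1721 TPM with it (-2.62), and the cytosolic GLN1;1 had 738, 647 and 741 TPM without sulfate and 88.4, 81.3 and 86.8 TPM with it (2.59). The nitrate transporter NRT1.8 rose to 44.4, 44.7 and 63.6 TPM, against 0.527, 0.648 and 0.697 TPM with sulfate (4.53). Of 17 nitrogen genes 8 were called higher and 5 lower, near the shares of all genes (38.5% and 24.7%).

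Salicylate genes rose almost as a whole, with 23 of 25 called higher, none lower and a median of 2.75, where 38.5% of all genes were called higher. ICS1, which makes the precursor of salicylate, had 127, 103 and 122 TPM in cdk8-1 without sulfate, against 24.7, 16.3 and 23.0 TPM in cdk8-1 with sulfate (1.97 ± 0.15, adjusted p = 1.09e-07). SARD1, its activator, had 116, 109.6 and 122 TPM without sulfate and 3.23, 2.48 and 4.53 TPM with it (4.30), and the export gene EDS5 changed by 3.15. PR1, a marker of salicylate signaling, had 1640.1, 1602 and 1868 TPM without sulfate and 4.11, 3.25 and 23.95 TPM with it (7.26), and PR2 881, 603 and 919 TPM without sulfate and 4.35, 5.82 and 59.6 TPM with it (5.47). Replicate 3 was the highest of the libraries with sulfate in both. The transcription factor gene WRKY38 rose by 5.11, the receptors NPR3 and NPR4 by 1.296 and 0.39, and FMO1 of N-hydroxypipecolate synthesis by 2.01. PR5 did not pass (0.08).

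Jasmonate synthesis genes were called higher in 8 of 13 and lower in none (median 0.72). Repressor and catabolism genes were called higher in 10 of 19 and lower in 2, and response genes higher in 5 of 7. Of all genes, 38.5% were called higher and 24.7% lower. The repressors and catabolism genes called lower were 1 without cdk8-1 without sulfate replicate 3 or without cdk8-1 with sulfate replicate 1. AOC3, an allene oxide cyclase, had 24.3, 16.4 and 25.3 TPM in cdk8-1 without sulfate, against 3.42, 1.76 and 2.29 TPM in cdk8-1 with sulfate (2.27), with the reservation that AOC copies share sequence. OPCL1, of the late steps in peroxisomes, had 70.5, 62.8 and 67.6 TPM without sulfate and 20.08, 11.4 and 16.4 TPM with it (1.59). The early enzyme AOS did not pass (0.10). The repressor gene JAZ5 rose to 6.79, 5.71 and 7.68 TPM, against 0.957, 0.169 and 0.553 TPM with sulfate (1.88), while JAZ2, JAZ6, JAZ8 and JAZ10 did not pass. VSP1, a storage protein gene, had 35.2, 35.9 and 21.7 TPM without sulfate and 12.6, 5.09 and 5.76 TPM with it (1.47).

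Camalexin and tryptophan genes were called higher in 7 of 13, with a median of 0.27, where 38.5% of all genes were called higher. CYP71A12, an enzyme of camalexin synthesis, had 359, 487 and 497 TPM in cdk8-1 without sulfate, against 21.1, 14.04 and 19.0 TPM in cdk8-1 with sulfate (4.11 ± 0.23, adjusted p = 4.32e-09). Its close paralog CYP71A13 stayed low, with 0.579, 0.528 and 1.26 TPM without sulfate and 0.220, 0 and 0.828 TPM with it (-0.02). Of the tryptophan enzymes ASB1 and AT2G04400 rose by 0.57 and 0.86, and TSA1 and TSB1 did not pass (-0.16 and -0.38).

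Detoxification and organelle stress genes mostly rose. Tau class glutathione transferases were called higher in 12 of 15 and lower in 1 (median 2.203), against 38.5% and 24.7% of all genes. GSTU27 had 507, 512 and 469 TPM in cdk8-1 without sulfate, against 53.3, 53.0 and 52.9 TPM in cdk8-1 with sulfate (2.75 ± 0.05, adjusted p = 1.01e-12), and GSTU4 changed by 3.83. The member called lower was GSTU5 (-1.17). All 9 genes of the mitochondrial retrograde response were called higher (median 3.36). AOX1A, the alternative oxidase, had 228, 241 and 246 TPM without sulfate and 23.4, 20.5 and 21.1 TPM with it (2.95), its paralog AOX1D changed by 4.48 and the outer-membrane gene OM66 by 5.32.

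Endoplasmic reticulum stress genes rose in 10 of 11 (median 0.97), where 38.5% of all genes were called higher. BZIP60, a transcription factor of this stress, had 167, 162 and 166 TPM without sulfate and 34.2, 28.9 and 34.4 TPM with it (1.86), and the disulfide isomerase PDI5 changed by 1.43. Heat shock genes had 4 of 8 called higher and 1 lower (38.5% and 24.7% of all genes), with HSP90.1 at 41.1, 38.1 and 30.4 TPM without sulfate and 5.28, 4.27 and 5.39 TPM with it (2.196). Antioxidant genes were called higher in 7 of 10, where 38.5% of all genes were. The catalase gene at AT1G20620 had 5158, 5789 and 6012 TPM without sulfate and 1038, 1144 and 1161 TPM with it (1.89), and the peroxisomal leaf catalase CAT2 had 133, 114 and 94.3 TPM without sulfate and 488, 481 and 453 TPM with it (-2.51).

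Iron-deficiency genes fell in cdk8-1. Of 16 genes of the iron list 10 were called lower and 1, FER1, higher (median -1.28), against 24.7% and 38.5% of all genes. After median-of-ratios scaling alone 13 were called lower, against 7135 of all 19127 genes. The regulator BHLH38 had 0.533, 0.292 and 1.13 TPM in cdk8-1 without sulfate, against 14.2, 7.07 and 18.3 TPM in cdk8-1 with sulfate (-3.49). It passed the filter through the cdk8-1 libraries with sulfate, so no test is given for it. BHLH39 had 0.712, 0.260 and 0.699 TPM without sulfate and 13.2, 7.62 and 19.1 TPM with it (-3.58), and BHLH100 and BHLH101 changed by -4.50 and -4.00. In Col-0 BHLH38 was at 0 in the 3 libraries without sulfate and at 0.148, 0.789 and 0.458 TPM with it, so low that its responses in the genotypes cannot be compared. BTS, a ligase that restrains the response, changed by -1.35. FRO6, a ferric reductase of green tissue, had 4.05, 8.15 and 3.08 TPM without sulfate and 134, 147 and 124 TPM with it (-5.01). The call of FER1, a ferritin, ended without cdk8-1 without sulfate replicate 1 (0.39).

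The morning gene CCA1 had 12.2, 6.20 and 4.99 TPM in cdk8-1 without sulfate, against 47.8, 35.2 and 30.9 TPM in cdk8-1 with sulfate (-2.66). LHY, its partner, had 5.93, 4.27 and 3.92 TPM without sulfate and 23.0, 20.4 and 21.1 TPM with it (-2.44). The evening gene ELF4 had 20.7, 27.6 and 33.5 TPM without sulfate and 1.62, 2.43 and 1.73 TPM with it (2.81 ± 0.29, adjusted p = 1.61e-06). TOC1 (1.29) and GI (1.18), also evening genes, and PRR5 (2.101) rose. In all, 6 of 14 clock genes were called higher and 5 lower, where 38.5% of all genes were called higher and 24.7% lower. The hour of harvest is not given in the sources used here, and a shift in phase and a change in level cannot be told apart.

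Anthocyanin genes rose with a wide spread. DFR, of the late pathway, had 189.5, 113 and 84.2 TPM in cdk8-1 without sulfate, against 6.77, 2.61 and 3.38 TPM in cdk8-1 with sulfate (4.18), and the transferase TT19 85.3, 60.1 and 50.1 TPM without sulfate and 3.08, 1.03 and 1.39 TPM with it (4.13). Replicate 1 was the highest library without sulfate in both. Of 16 flavonoid genes 11 were called higher and 3 lower, against 38.5% and 24.7% of all genes. Those called lower were FLS1 of flavonol synthesis (-1.88), its activator MYB111 (-1.20) and the repressor MYBL2 (-2.52). The call of CHS, the first enzyme, ended without cdk8-1 with sulfate replicate 2 (0.71) or 3 (0.74) or cdk8-1 without sulfate replicate 1 (0.47).

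The next lists had shares near or below those of all genes (38.5% higher and 24.7% lower), except for the falls of phosphate and Aux/IAA genes. Of 14 phosphate genes 5 rose and 5 fell. PHT1;1, a phosphate transporter, had 29.8, 15.2 and 24.6 TPM without sulfate and 5.89, 2.16 and 2.65 TPM with it (2.00). The sulfolipid enzymes SQD1 and SQD2, which put sulfur into chloroplast lipids, changed by -1.13 and -1.43. Of 16 abscisic acid and cold genes 4 rose and 3 fell, with the phosphatase ABI1 at 0.83 and the dehydrin COR47 at -1.45, and 5 fell without cdk8-1 without sulfate replicate 1. Of 13 Aux/IAA auxin repressors 2 rose and 5 fell, with IAA14 at 7.75, 9.70 and 6.65 TPM without sulfate and 26.3, 25.6 and 21.6 TPM with it (-1.95).

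**Figure D5:**
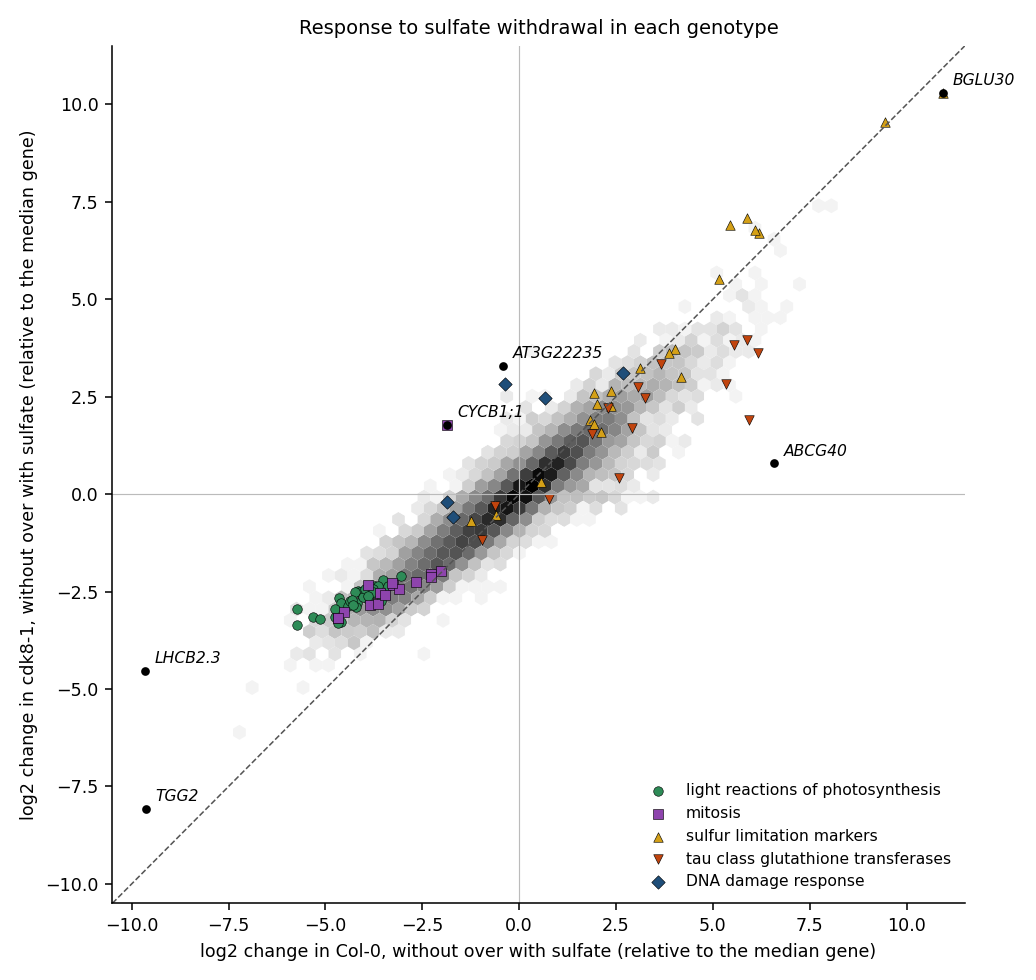
Log2 change without sulfate relative to with sulfate of each of 19127 genes in cdk8-1 (vertical) and Col-0 (horizontal), each relative to its median gene, with color for the number of genes per cell and a dashed line of equal change. Large rises and falls lie on the horizontal side of the line, toward smaller changes in cdk8-1 (3941 of 5011 called differences).

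The response in cdk8-1 was set against that in Col-0, with no library shared between the responses. Across genes, which are not independent replicates, the changes correlated at r = 0.932. Of the genes called in both genotypes 11076 had the same sign and 38 opposite signs. The difference between the responses, cdk8-1 minus Col-0, was called higher in 2792 genes (14.6%) and lower in 2219 (11.6%) by limma with the same rule. Of these 5011 genes, 3941 had a smaller change of the same sign in cdk8-1, 428 a larger one, and 642 changes of opposite sign.

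Photosynthesis genes fell less in cdk8-1. The difference was called higher in all 34 light-reaction genes, all 16 Calvin-cycle genes and all 12 chlorophyll synthesis genes, where 14.6% of all genes were. LHCB2.3, an antenna protein of photosystem II, had 79.5, 103 and 51.0 TPM in cdk8-1 without sulfate, against 1340.4, 1338 and 1193 TPM in cdk8-1 with sulfate. In Col-0 it had 1.75, 1.63 and 1.41 TPM without sulfate and 1691, 1405 and 1515 TPM with it, and the responses differed by 5.12 (adjusted p = 3.41e-07). Without sulfate every cdk8-1 library lay far above every Col-0 library, and with sulfate every Col-0 library lay above every cdk8-1 library. GASA6, a gibberellin-regulated gene, differed by 4.19 and the latex-protein relative MLP423 by 3.62. Mitotic genes (10 of 16), replication genes (9 of 11), aquaporins (9 of 16), Aux/IAA genes (7 of 13) and expansins (6 of 8) were called in the same direction, none of them in the other.

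Many stress and senescence genes had a lower response in cdk8-1. The difference was called lower, against 11.6% of all genes, in 10 of 13 camalexin and tryptophan genes, 10 of 15 tau class transferases, 10 of 16 senescence genes, 9 of 25 salicylate genes and 6 of 8 heat shock genes. Among other lists it was also called lower in 8 of 16 iron genes and 6 of 15 autophagy genes, and higher in 1 of each. The lowest difference was that of ABCG40, a plasma-membrane transporter of abscisic acid. ABCG40 had 3.63, 4.096 and 6.63 TPM in cdk8-1 without sulfate, against 1.15, 1.43 and 1.62 TPM in cdk8-1 with sulfate. In Col-0 it had 304, 322 and 369 TPM without sulfate and 1.64, 1.40 and 1.56 TPM with it, and the difference was -5.79 (adjusted p = 5.62e-08). GSTU3 was at 2.78, 3.97 and 5.90 TPM in cdk8-1 without sulfate and at 77.7, 80.6 and 116 TPM in Col-0 without sulfate, with 0 in every cdk8-1 library with sulfate. TH8, a thioredoxin h, had 8.93, 7.13 and 9.003 TPM in cdk8-1 without sulfate and 192, 189.5 and 239 TPM in Col-0 without sulfate, and SAG29, a sugar transporter of senescing leaves, had 6.05, 5.43 and 10.8 TPM in cdk8-1 without sulfate and 60.5, 68.0 and 60.3 TPM in Col-0 without sulfate.

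Some genes had a higher response in cdk8-1. AT3G22235 had 459, 386 and 383 TPM in cdk8-1 without sulfate and 20.8, 19.9 and 61.1 TPM in cdk8-1 with sulfate, while Col-0 had 0, 0 and 0.103 TPM without sulfate and 0 in all libraries with it. As the gene was at or near 0 in every Col-0 library, it passed the filter through cdk8-1 alone, and no test of the difference is given. AT1G30170 had 32.5, 35.6 and 31.1 TPM in cdk8-1 without sulfate and 0.180, 0.138 and 0.139 TPM in cdk8-1 with sulfate, with 1.42, 0.807 and 0.363 TPM in Col-0 without sulfate. It passed the filter through the cdk8-1 libraries without sulfate, so no test of its difference is given either. CYCB1;1 had 34.8, 40.2 and 43.6 TPM in cdk8-1 without sulfate and 1.90, 2.66 and 1.87 TPM in Col-0 without sulfate. With sulfate it had 8.79, 6.96 and 7.36 TPM in cdk8-1 and 8.80, 6.18 and 6.93 TPM in Col-0, and it was called in opposite directions in the genotypes (3.62, adjusted p = 7.49e-07). PARP2 differed by 1.803 and SMR7 by 3.20, the latter with no test given for the reason stated above.

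Most sulfur markers showed no called difference between the responses. It was called higher in 3 of 21 and lower in 3, near the shares of all genes (14.6% higher and 11.6% lower). SULTR4;2 (0.66), SULTR2;1 (0.55) and GGCT2;1 (1.47) were the higher ones, the last a call that ended in 9 of the sets that left out a library (1.11 to 1.50). BGLU30 (-0.66), SULTR1;1 (-1.17) and SULTR4;1 (-0.53) were the lower ones. Outside this list GSH1 fell more in cdk8-1 (-1.09, adjusted p = 4.71e-05), with 71.1, 74.9 and 82.4 TPM in cdk8-1 without sulfate and 149, 156 and 190.3 TPM in Col-0 without sulfate.

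Genes that changed by 4-fold or more also lay side by side on the chromosomes. On chromosome 5 the neighbors AT5G52730, AT5G52740, AT5G52750, AT5G52760 and AT5G52770 were all called higher, by 2.28 to 4.45. AT5G52760 had 121, 106 and 108 TPM in cdk8-1 without sulfate, against 4.94, 1.78 and 2.22 TPM in cdk8-1 with sulfate, and AT5G52730 6.35, 6.13 and 6.36 TPM without sulfate and 0 in all libraries with it. The receptor-like kinase genes CRK6, CRK7 and CRK8 and the next gene EP1 rose by 4.46, 3.51, 2.16 and 2.49, and reads of such kinase copies may be shared. Among the runs that fell were the aldolase genes FBA7 and FBA5 (-3.14 and -5.64). Runs were found after the changes were known.

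Promoters of all lists were searched for short motifs on both strands, from 250 bases before to 50 bases after the annotated start, and each motif is given first for the list it is known for. AACGG, the core bound by the MYB3R factors of mitosis, was in 12 of 16 mitotic promoters (75%) and in 26.3% of all 19126. GATAAG was in 18 of 34 light-reaction promoters (52.9%) and in 14.9% of all. AAATATCT, the evening element, was in 5 of 14 clock promoters (35.7%) and in 5.92% of all, and the G-box CACGTG in 9 of 14 (64.3%) against 8.75% of all. CACGTG was also in 6 of 11 endoplasmic reticulum stress promoters (54.5%) and 8 of 16 iron promoters (50%). TTGAC, the core of the W-box bound by WRKY factors, was in 16 of 25 salicylate promoters (64.0%) and in 50.9% of all. It was also in 15 of 16 senescence promoters (93.8%), 12 of 15 tau class transferase promoters (80.0%) and 10 of 13 camalexin and tryptophan promoters (76.9%). GAGAC, a core of a sulfur-response element, was in 7 of 21 sulfur-marker promoters (33.3%) and in 32.3% of all, with 12 of 19 (63.2%) in the jasmonate repressor and catabolism list. For genes called higher by 4-fold or more the shares were 62.4% for TTGAC and 32.4% for GAGAC, and for those called lower by 4-fold or more 43.9% and 34.1%. These are matches of letters and not bound sites.

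The 250 bases before the start of 1 member of each of 3 lists show these matches, on either strand, in capitals (RefSeq assembly TAIR10.1, 5′ to 3′ on the gene's strand, here the minus strand in all 3). Each was picked as the member of its list with the most matches, ties settled by the smallest adjusted p, so they are not typical promoters of the lists. CYCB1;2 and LHCA1 fell and SARD1 rose, as given above.
CYCB1;2, chr5:1861704-1861953, AACGG: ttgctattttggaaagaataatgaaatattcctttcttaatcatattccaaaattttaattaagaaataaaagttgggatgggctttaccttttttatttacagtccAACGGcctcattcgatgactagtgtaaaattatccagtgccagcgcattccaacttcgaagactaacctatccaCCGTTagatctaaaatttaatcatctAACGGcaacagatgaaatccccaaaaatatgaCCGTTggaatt
LHCA1, chr3:20341177-20341426, GATAAG: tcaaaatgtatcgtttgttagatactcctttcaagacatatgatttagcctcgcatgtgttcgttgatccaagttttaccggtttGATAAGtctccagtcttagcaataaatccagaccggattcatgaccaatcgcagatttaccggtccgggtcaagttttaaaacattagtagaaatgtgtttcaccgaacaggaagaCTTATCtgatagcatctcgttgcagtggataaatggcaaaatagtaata
SARD1, chr1:27749249-27749498, TTGAC: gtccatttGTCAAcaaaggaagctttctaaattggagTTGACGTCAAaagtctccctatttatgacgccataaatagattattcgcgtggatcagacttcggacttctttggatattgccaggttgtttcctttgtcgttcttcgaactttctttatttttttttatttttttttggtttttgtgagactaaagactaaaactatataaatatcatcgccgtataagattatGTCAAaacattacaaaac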

How the data were processed

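RNA was sequenced from 12 shoot samples with a strand-specific library kit, and the submitters' processing notes name STAR 2.7.11b, featureCounts 2.0.8 and DESeq2 1.46. Build and annotation: not given in the sources used here. The authors deposited TPM values per locus, which are per-length shares of a library and no counts. Reads were recovered from the TPM steps with annotated gene lengths, and 99.39% of values were whole within 0.01 read. Genes averaging 1 TPM or more were tested with limma 3.58.1 in R 4.3.3 on log2(TPM + 1), with 4 group means, a trended variance and Benjamini-Hochberg adjustment, on the deposited scale and after median-of-ratios scaling. The printed change is that on the deposited scale minus the median gene, and the printed adjusted p is the larger of both scales. The members and lists were chosen with earlier results of these data known. Genes were named by rule: CDK8, the 15 largest rises and falls without overlap, the 8 highest and 8 lowest differences between genotypes, up to 4 called members per list, and all members of 3 lists; genes named beyond that were chosen after their values were seen. Loci were matched to RefSeq TAIR10.1 (32548 of 32833), which gave names, promoters and codons. With 3 libraries a group, an exact test of a single value cannot go below p = 0.1. The call rule was tried on simulated libraries in which few genes changed, up and down alike. The broad change of abundant messages seen here was not simulated, so the scaling was not tested under it. Alternatives were other scalings, filters, pseudocounts, voom on recovered reads, a replicate block and leaving out each library.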

Additional observations from a re-analysis of the deposited data

Results flagged for a closer look

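Some results stood out because the response to sulfate withdrawal differed between cdk8-1 and Col-0 in a test of the difference itself. Among lists, the difference (cdk8-1 minus Col-0) was called higher in 34 of 34 light-reaction genes, 16 of 16 Calvin-cycle genes, 12 of 12 chlorophyll synthesis genes, 9 of 11 replication genes and 6 of 8 expansins, against 14.6% of all genes. It was called lower in 10 of 13 camalexin and tryptophan genes and 6 of 8 heat shock genes, against 11.6% of all genes.

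In 38 genes the response was called in opposite directions in the genotypes. Of these, 12 are given here, which were list members or genes picked after their values were seen. Among them a higher value in cdk8-1 was found for CYCB1;1 (difference of 3.62 on the log2 scale), VSP2 (3.39), ABCA10 (3.25), GSTF14 (2.98), COPT2 (2.37), AOC1 (1.68), SIM (1.55), CYCD4;2 (1.45) and CCH (0.94). A lower value was found for SWEET2 (-2.64), NIT4 (-2.41) and CSD2 (-1.40). The response call in cdk8-1 of COPT2 and of SIM ended when single libraries were left out: COPT2 without cdk8-1 without sulfate replicate 1 (0.45) or cdk8-1 with sulfate replicate 2 (0.43) or 3 (0.50), and SIM without cdk8-1 without sulfate replicate 3 (0.31) or cdk8-1 with sulfate replicate 1 (0.22). No cause was tested.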

How the results depend on the processing

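Counts of genes called in cdk8-1 lay within 1.5 times the reported 7372 higher and 4730 lower under every alternative run, except that 7135 were called lower after median-of-ratios scaling alone and 7135 by voom on recovered reads. With each cdk8-1 library left out in turn, 6972 to 7084 were higher and 4475 to 4601 lower. For the difference between genotypes, with each of the 12 libraries left out in turn, 2365 to 2769 were higher and 1752 to 2383 lower, against 2792 and 2219. The codon share difference of 0.180 points became 0.0888 without the photosynthesis lists, 0.141 for cysteine alone, 0.0397 for methionine alone and 0.0992 without weights, as the median gene called higher minus the median gene called lower. Without its most abundant member, the log2 ratio of summed TPM was -1.81 for chlorophyll synthesis, -1.58 for mitosis, 0.97 for autophagy, 3.45 for salicylate genes and 2.26 for tau class transferases, against -1.92, -1.70, 1.48, 4.21 and 1.16 with it. Leaving out both cdk8-1 libraries numbered 1 was chosen after seeing the data. Some single genes changed sign: OASA1 was at 0.158 under quantile scaling and HSFA2 at 1.103 with a pseudocount of 0.1 TPM. Differences between genotypes changed sign for WRKY38 (0.285), BHLH101 (0.724), CYP94B3 (0.517) and UGT74E2 (0.235) under voom, and for NIA2 (-0.716) under quantile scaling; the cause was not tested. Same-numbered cdk8-1 libraries deviated together at r = 0.263, 0.0746 and 0.127, so the numbers were not taken as pairs. With the replicate block 7471 genes were called higher and 4815 lower, and 3057 and 2487 in the difference between genotypes. Depth limits genes near 1 TPM, where 1 read per kilobase stands for 0.0710 to 0.0962 TPM.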
